A study of Mus musculus with 7 samples.

Results

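The 3 NR4A genes of the mouse, Nr4a1, Nr4a2 and Nr4a3, were examined for deposited peaks of 2 transcription factors, LEF1 and TCF1, in naive T cells of the CD8 lineage. They were chosen by family and not by measured values. Every distinct peak interval touching the gene body or 30 kb on either side was taken as belonging to a gene. This gave 111 of the 148963 peaks in the 6 lists, 61 around Nr4a1, 14 around Nr4a2 and 36 around Nr4a3. All 3 genes had peaks of both factors, with Nr4a1 the most and Nr4a2 the fewest.

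The peaks came from CUT&RUN, a method that tethers a nuclease to a protein on chromatin through its antibody and sequences the DNA released by cutting nearby. LEF1, and TCF1 which is made from the gene Tcf7, belong to the same family of DNA-binding proteins, which maintains naive and stem-like T cells. Each factor had 3 libraries, all from spleen CD8 T cells of genotype WT that carried the transgenic P14 T cell receptor, which recognises a viral peptide, and were sorted as Ly5.1+, CD44- and CD62L+. No age is given in the sources used here, nor whether replicates came from separate animals. Each p-value therefore reflects spread among these libraries only, and that spread may be technical. A single input control, sorted as Ly5.1- and CD44+, is labelled in the series and was not analysed here.

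NR4A proteins are orphan nuclear receptors, that is, members of the hormone receptor superfamily that act without a classical ligand. They are made within a short time of T cell receptor signalling, bind DNA as monomers or dimers, and are known in CD8 T cells as restraints on effector function that accumulate in exhausted cells. Nr4a1 is widely used to report T cell receptor signalling, and Nr4a3 belongs to the same early response. Nr4a2 is best known for its role in dopamine neurons and is also made in activated T cells. A peak in a naive cell says where the factor's antibody led to cutting and carries no information on the level of the gene's RNA, which was not measured here. Whether the cuts reflect binding or open DNA was not tested.

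The lists held 23704 to 37646 peaks for LEF1 and 11423 to 25623 for TCF1, the shortest being TCF1 replicate 3. Read totals were not given, so the depth is unknown. Of the T cell marker genes, 8 of 8 had a region found in all 6 libraries within 30 kb, with a median of 7 such regions. The counts were 2 of 6 for B cell, 3 of 6 for myeloid and 2 of 4 for erythroid marker genes, against 45.1% of all protein-coding genes.

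The promoters of the 3 genes are shown first, because they differed in whether a peak touched them. Each line gives 250 bases before and 50 bases after the start in the RefSeq promoter table (GRCm38.p6), read 5′ to 3′ on the gene's own strand. Nr4a1 lies at chr15:101266596-101266895 on the plus strand, Nr4a2 at chr2:57123954-57124253 on the minus strand and Nr4a3 at chr4:48045055-48045354 on the plus strand. Capitals mark TGACG on either strand, the core of the cyclic AMP response element, which CREB family proteins are known to bind.
Nr4a1: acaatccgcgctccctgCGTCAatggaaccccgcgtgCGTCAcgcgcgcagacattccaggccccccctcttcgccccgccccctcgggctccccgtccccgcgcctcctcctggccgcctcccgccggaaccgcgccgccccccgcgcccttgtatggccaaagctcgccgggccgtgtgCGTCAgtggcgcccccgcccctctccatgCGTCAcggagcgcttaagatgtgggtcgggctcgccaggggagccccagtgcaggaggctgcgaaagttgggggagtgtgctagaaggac
Nr4a2: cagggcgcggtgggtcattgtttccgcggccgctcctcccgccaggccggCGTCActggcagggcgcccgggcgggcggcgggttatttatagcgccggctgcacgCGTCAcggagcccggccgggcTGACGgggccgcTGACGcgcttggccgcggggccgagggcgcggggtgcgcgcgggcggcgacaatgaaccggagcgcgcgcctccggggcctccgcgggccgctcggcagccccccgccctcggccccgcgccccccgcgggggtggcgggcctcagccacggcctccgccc
Nr4a3: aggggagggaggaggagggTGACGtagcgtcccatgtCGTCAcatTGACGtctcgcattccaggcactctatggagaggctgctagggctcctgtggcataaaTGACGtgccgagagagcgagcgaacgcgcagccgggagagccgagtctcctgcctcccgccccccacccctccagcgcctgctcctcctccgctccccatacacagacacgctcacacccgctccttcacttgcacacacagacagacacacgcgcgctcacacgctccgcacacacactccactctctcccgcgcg

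Each of the 3 promoters held 4 matches to TGACG. Of 21263 promoter windows of protein-coding genes, 23.6% held at least 1 match and 0.325% held 4 or more, a limit set after the members' counts were seen. The windows were rich in G and C, with 72.3% for Nr4a1, 81.7% for Nr4a2 and 64.7% for Nr4a3 against a median of 56.3%. Neither of the TCF/LEF motifs searched, CTTTGAT and CTTTGTT on either strand, was present in the 3 windows, and 3.22% and 5.01% of all windows held them. The NR4A element AAAGGTCA (1.303% of windows), the full element TGACGTCA (2.23%), which contains TGACG, and the AP-1 motif TGANTCA (6.99%) had no match either. The SP/KLF motif GGGCGG, found in 46.2% of windows, matched 3 times in Nr4a1, 5 times in Nr4a2 and 1 time in Nr4a3. A match is a description of letters and not a binding site.

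A peak touched the promoter window of Nr4a1 and of Nr4a3 in all 6 libraries, while that of Nr4a2 had none in any. At Nr4a1 these peaks ended at 101267002 to 101267100, past the start at 101266846. At Nr4a3 they ended at 48045231 to 48045262, before the start at 48045305, and left the end of the window uncovered. Over all promoter windows 16.2% had a peak in all 6 libraries and 64.4% had none. In Nr4a1 the summits, the positions of highest signal within peaks, lay 138 to 166 bp before the start. They fell between the TGACG matches that begin 213 and 69 bp before it. In Nr4a3 the summits lay 147 to 250 bp before the start, the stretch in which all 4 of its TGACG matches begin. The promoter of Nr4a2 carried as many TGACG matches as the others and no peak, and the peak nearest to its start lay 6.06 kb inside the gene.

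The number of peaks around each gene was compared between the factors. Around Nr4a1 the counts in replicates 1, 2 and 3 were 11, 14 and 11 for LEF1 and 9, 10 and 6 for TCF1. Every LEF1 library was above every TCF1 library, a pattern that 7.51% of the 14956 genes with any peak showed in this direction. The means were 12 ± 1.73 for LEF1 and 8.33 ± 2.08 for TCF1 (SD, n = 3), a difference of 3.67 (exact permutation test, two-sided, p = 0.1, the smallest that 3 against 3 libraries allow). Adjusted over all genes with a peak this p was 1, and no gene had a lower one. LEF1 replicates 1 and 3 listed the region 20.4 kb before the start as 2 peaks. With overlapping peaks of the libraries merged into regions, the counts were 10, 14 and 10 for LEF1 and 9, 10 and 6 for TCF1. Counted so, the groups met at 10, and the separation of the peak counts rests on how that region was split. The direction turned with list length: per 10000 listed peaks Nr4a1 had 3.98, 3.72 and 4.64 peaks in the LEF1 and 3.51, 4.37 and 5.25 in the TCF1 libraries (exact permutation p = 0.7, two-sided). Over all genes with a peak, 3.79% had every LEF1 library above every TCF1 library on this scale and 6.56% the reverse. With lists of equal size the counts were 5, 4 and 5 for LEF1 and 5, 6 and 6 for TCF1, a mean difference of -1 (exact permutation p = 0.3, two-sided). Those groups met at 5 peaks, and of the 11271 genes with a peak in these lists 2.97% had every LEF1 library higher and 6.64% every TCF1 library.

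Around Nr4a3 the counts were 7, 8 and 6 for LEF1 and 6, 5 and 4 for TCF1. The groups met at 6 peaks. The difference of 2 between the means of 7 ± 1 and 5 ± 1 (SD, n = 3) gave an exact permutation p of 0.2, two-sided. It too turned negative when scaled to list length, at 2.53, 2.13 and 2.53 peaks per 10000 listed for LEF1 and 2.34, 2.18 and 3.502 for TCF1 (exact permutation p = 0.8). Nr4a2 had 3 peaks in each LEF1 library and 2, 3 and 0 in TCF1 replicates 1 to 3. The groups overlapped, and the difference of 1.33 (exact permutation p = 0.4, two-sided) was 0.500 without TCF1 replicate 3.

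**Figure D1:**
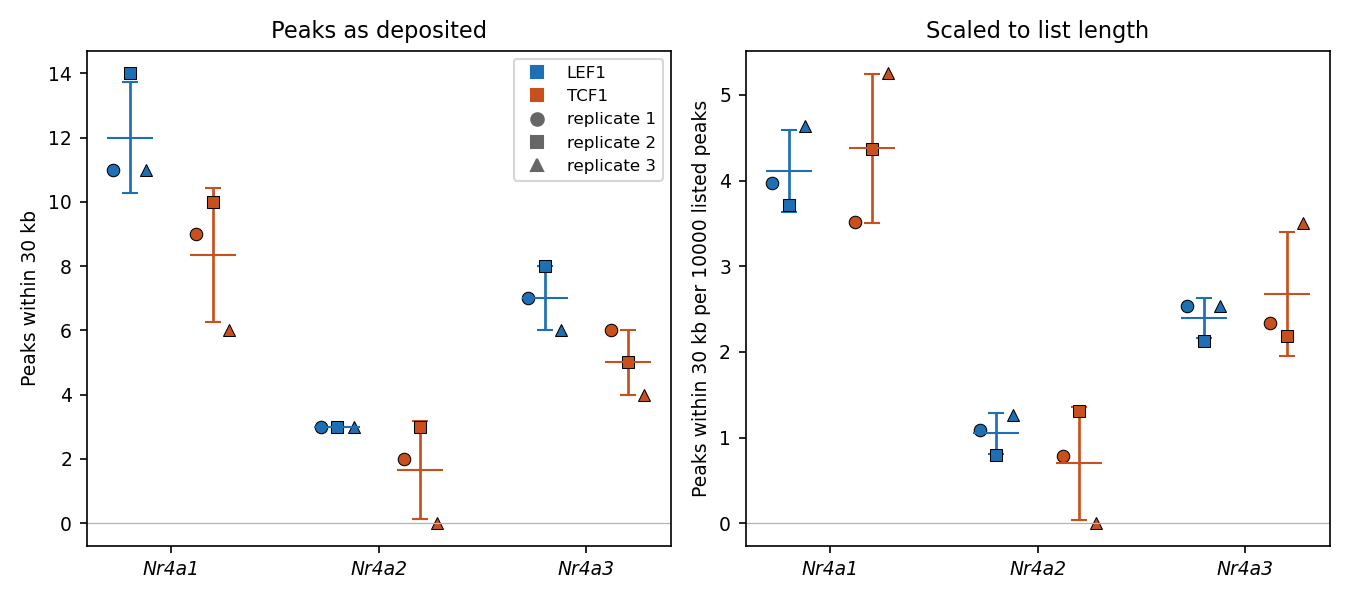
Distinct peaks touching each gene or 30 kb on either side (left) and the same per 10000 peaks listed in the library (right), for LEF1 (blue) and TCF1 (orange). Symbols are single libraries, with the mean and SD (n = 3) as bars. The LEF1 libraries with 11 to 14 peaks at Nr4a1 all stand above the TCF1 libraries with 6 to 10 on the left, and the groups overlap on the right.

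The order of the genes was the same in all 6 libraries. Nr4a1 exceeded Nr4a3 by 2 to 6 peaks, and Nr4a3 exceeded Nr4a2 by 2 to 5. The windows differed in length, at 80.9 kb for Nr4a1, 77.2 kb for Nr4a2 and 101 kb for Nr4a3, so that the longest window did not hold the most peaks. The mean over the 6 libraries was 10.2 peaks for Nr4a1, and 98.2% of the 21887 protein-coding genes had fewer. For Nr4a3 it was 6 (92.5% had fewer) and for Nr4a2 it was 2.33 (67.7%). Peaks covered 2.79 to 6.57 kb of the Nr4a1 window, 2.12 to 4.96 kb at Nr4a3 and 0 to 1.59 kb at Nr4a2. Covered length overlapped between the factors at all 3 genes (exact permutation p = 0.5, 0.2 and 0.9, two-sided).

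Overlapping peaks of the 6 libraries were merged into regions, 14 at Nr4a1, 2 at Nr4a2 and 7 at Nr4a3. Of these 23, 10 were found in all 6 libraries, which is 43.5% against 28.5% of all 38231 regions of the genome. All 10 lay at Nr4a1 (6) and Nr4a3 (4). The count at Nr4a1 was 3 with lists of equal size, and that at Nr4a3 was 2 where a library's peaks had to cover at least 50% of a region. Both factors held 16 of the 23, where a factor holds a region if 2 or more of its libraries list a peak there, which is 69.6% against 53.6% over the genome. LEF1 alone held 4 and TCF1 alone held 0, where over the genome LEF1 alone held 18.1% of regions and TCF1 alone 1.93%. A single library, LEF1 replicate 2 with the longest list, gave 3 of the 23, and 23.1% of all regions were in 1 library. No region lacked a LEF1 peak. Another 6 regions were found in every library but TCF1 replicate 3, the shortest list, and these included both regions of Nr4a2. The shares of all regions in these classes are not given here, so neither count is read as particular to these genes. Summits of the 10 shared regions spread over a median of 106.5 bp between libraries, and 4 of the 10 stayed within 100 bp. Over all 10890 regions shared by the 6 libraries the median was 49 bp and 71.2% stayed within 100 bp.

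**Figure D2:**
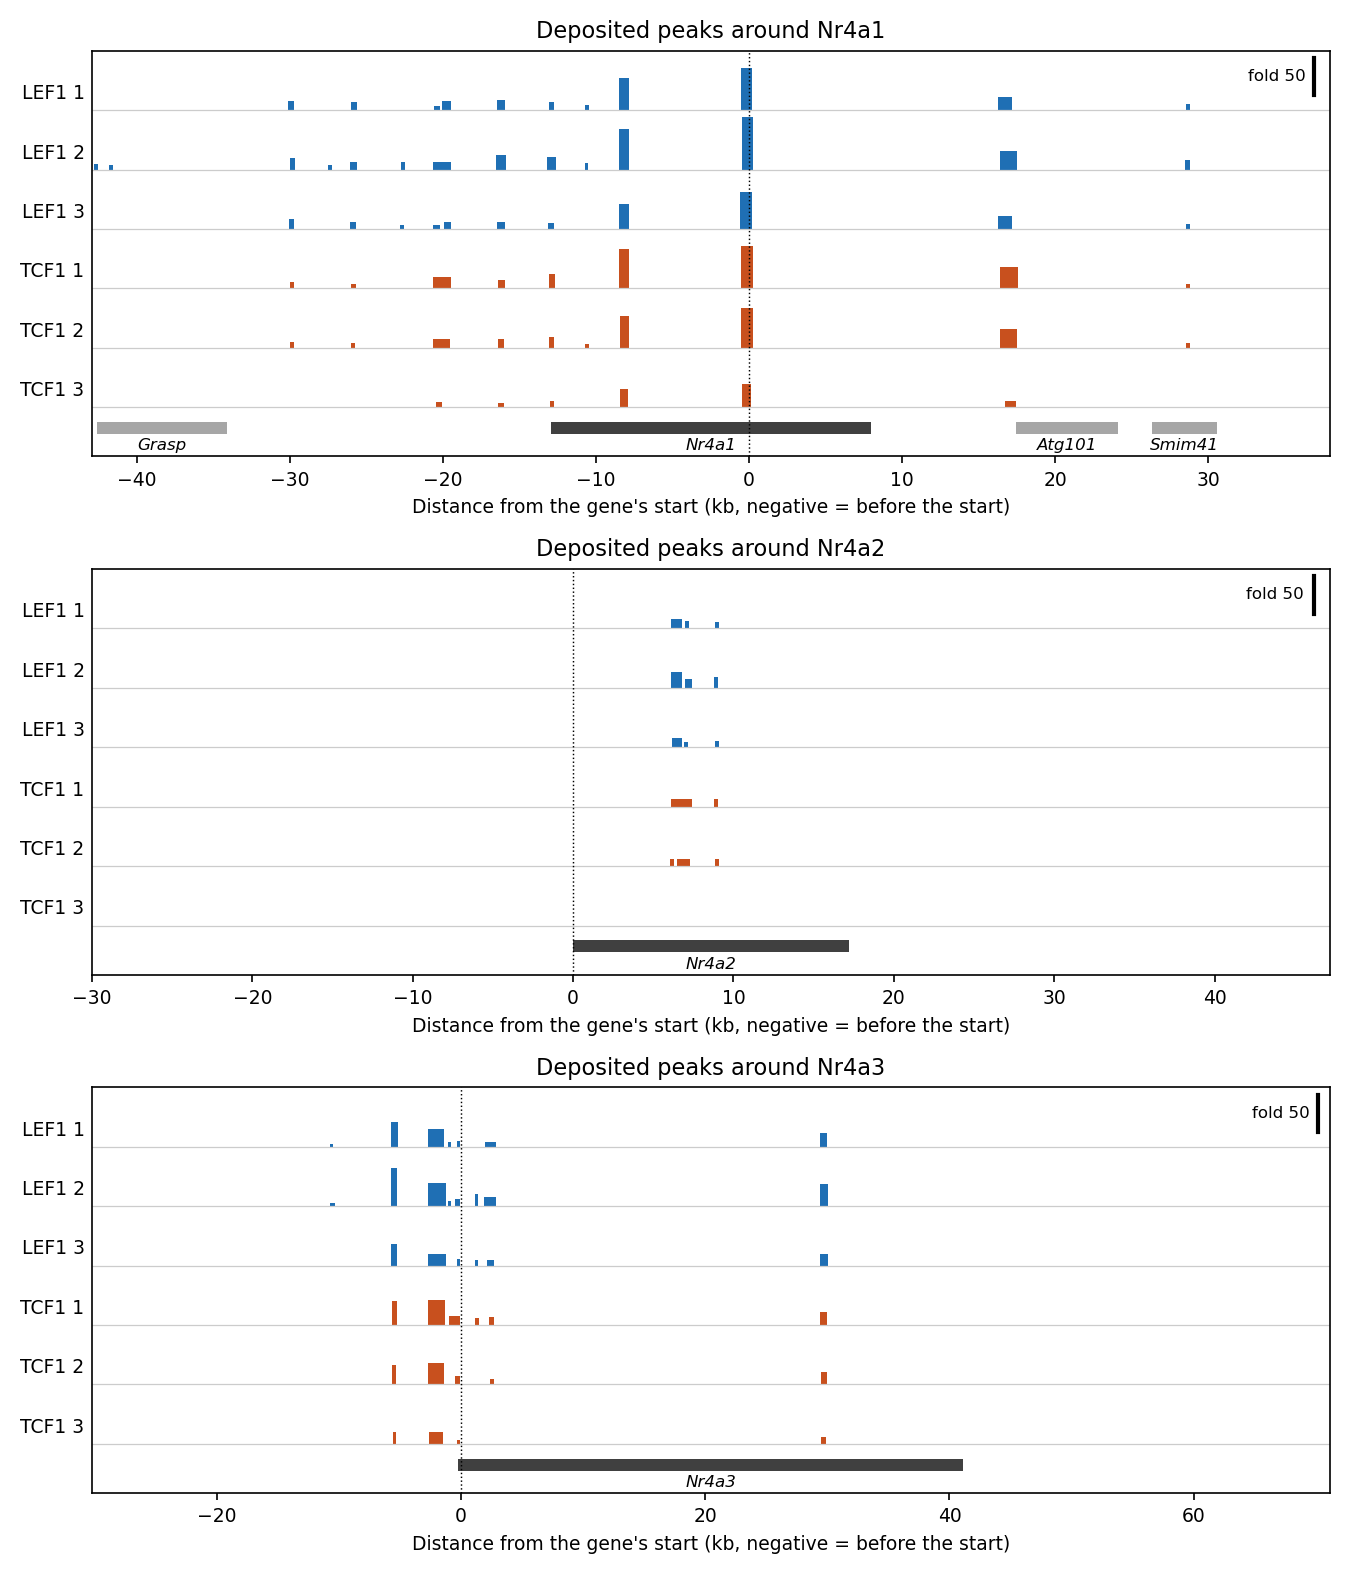
Deposited peaks around the 3 genes by distance from the start in kb, 1 track per library (LEF1 blue, TCF1 orange). Bar height is the authors' fold enrichment (scale bar 50), bar width is the peak's width (at least 0.25 kb as drawn), and boxes are the gene (dark) and the neighbouring genes Grasp, Atg101 and Smim41 (grey); LOC105244150 is not drawn. The tallest bars of the Nr4a1 panel stand at the start and 8.13 kb before it, and those of Nr4a3 at 5.48 and 1.82 kb before the start.

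Nr4a1 (chromosome 15, 101253902 to 101274795 in GRCm38.p6, plus strand) had its strongest region over the promoter, at 101266253 to 101267100. Fold enrichment, the authors' ratio of the signal at a summit to the local background, was 56.6, 71.4 and 49.95 in LEF1 replicates 1 to 3 and 56.6, 53.2 and 31.5 in TCF1 replicates 1 to 3. Ranked within each list it lay at percentile 2.52 to 4.39, counted from the strongest peak at 0. It was the strongest region of the locus in all 6 libraries.

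The next strongest region in all 6 libraries lay 8.13 kb before the start (101258351 to 101258990), at percentile 3.49 to 8.33. Its fold enrichment was 43.0, 54.9 and 33.6 for LEF1 and 53.4, 42.5 and 24.7 for TCF1. The gene body in the RefSeq table begins 12.9 kb before the start used here, so this region lies inside the annotated gene. Exons and introns were not told apart. A weaker region found in all 6 libraries, 12.8 kb before the start (101253654 to 101254244), spanned that outer end of the gene body, with fold enrichments of 8.66 to 16.5 for LEF1 and 8.39 to 19.5 for TCF1.

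Outside the Nr4a1 gene body, 2 regions upstream were found in all 6 libraries. They lay 16.1 kb (101250319 to 101250936) and 20.4 kb (101246193 to 101247378) before the start, with fold enrichments of 5.45 to 20.3 and 7.04 to 16.01. The region at 20.4 kb was listed differently between libraries. In LEF1 replicates 1 and 3 it was 2 peaks, and the stronger had its summit at 101246982 and 101246978. In the other 4 libraries it was 1 peak with its summit at 101246421 to 101246455. Farther upstream, regions 29.8 and 25.9 kb before the start were found in all 3 LEF1 libraries and in TCF1 replicates 1 and 2. Within their lists they stood at percentile 36.7 to 68.5 and 51.8 to 83.8. Regions 22.6 kb before the start (LEF1 replicates 2 and 3) and 10.6 kb before it (LEF1 replicates 1 and 2, TCF1 replicate 2) had fold enrichments of 5.65 to 10.3.

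Neighbouring genes share the Nr4a1 window. The merged region 17.1 kb after the start (101283104 to 101284419, all 6 libraries) touched the body of Atg101, a gene of the autophagy initiation complex that begins at 101284301. Only the peaks of LEF1 replicate 2 and TCF1 replicates 1 and 2 reached that gene. Those of LEF1 replicates 1 and 3 and TCF1 replicate 3 ended before it, at 101284019, 101284015 and 101284272. The region's summits spread over 740 bp, and its fold enrichment was 17.2 to 24.6 for LEF1 and 9.01 to 28.5 for TCF1. The region 28.7 kb after the start lay in Smim41 and was missing from TCF1 replicate 3. The single-library regions 42.7 and 41.7 kb before the start touched Grasp, a gene of a scaffold protein, and the one at 27.4 kb lay between the genes. Which gene a region acts on was not tested.

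Nr4a3 (chromosome 4, 48045078 to 48086447, plus strand) had no protein-coding neighbour in its window. Its strongest regions lay before the gene, 5.48 kb (48039547 to 48040179) and 1.82 kb (48042605 to 48044091) before the start. At 5.48 kb the fold enrichment was 33.0, 50.6 and 28.8 for LEF1 and 31.7, 26.0 and 16.03 for TCF1. At 1.82 kb it was 24.2, 31.2 and 15.4 for LEF1 and 34.0, 29.3 and 15.9 for TCF1. The farther region was thus the stronger in all 3 LEF1 libraries, and the nearer in TCF1 replicates 1 and 2, while in TCF1 replicate 3 they were close.

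Inside Nr4a3, a region 29.7 kb after the start (48074711 to 48075379) was found in all 6 libraries with fold enrichments of 17.8, 29.9 and 15.1 for LEF1 and 17.2, 16.3 and 9.30 for TCF1. Its summits lay within 9 bp of each other, and 5 of the 6 were the same base. At the promoter of Nr4a3, within the region 48044266 to 48045262, fold enrichment was 7.03, 9.76 and 9.02 for LEF1 and 11.5, 11.0 and 5.51 for TCF1. This region ranked at percentile 47.0 to 90.0, where the promoter region of Nr4a1 ranked at 2.52 to 4.39. The promoter region of Nr4a1 was thus the higher ranked in all 6 libraries.

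The remaining Nr4a3 regions were in fewer libraries. The one 2.48 kb after the start was found in all libraries but TCF1 replicate 3, and the one 1.29 kb after the start in LEF1 replicates 2 and 3 and TCF1 replicate 1. The one 10.7 kb before the start was listed by LEF1 replicates 1 and 2 at fold enrichments of 3.37 and 3.73, at percentile 99.98 and 99.6 of their lists.

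Nr4a2 (chromosome 2, 57106830 to 57124003, minus strand) had peaks inside the gene body only. One region lay 6.25 kb after the start (57116559 to 57117942) and one 8.99 kb after it (57114940 to 57115248). The first had fold enrichments of 12.8, 21.0 and 12.5 for LEF1 and 10.46 and 9.99 for TCF1 replicates 1 and 2. It was listed as 2 peaks in all 3 LEF1 libraries and in TCF1 replicate 2, and as 1 wide peak of 1336 bp in TCF1 replicate 1. The second had 9.28, 14.6 and 9.10 for LEF1 and 11.0 and 8.96 for TCF1. TCF1 replicate 3 listed no peak in the window. A predicted gene, LOC105244150, overlaps the start of Nr4a2 and held no region.

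**Figure D3:**
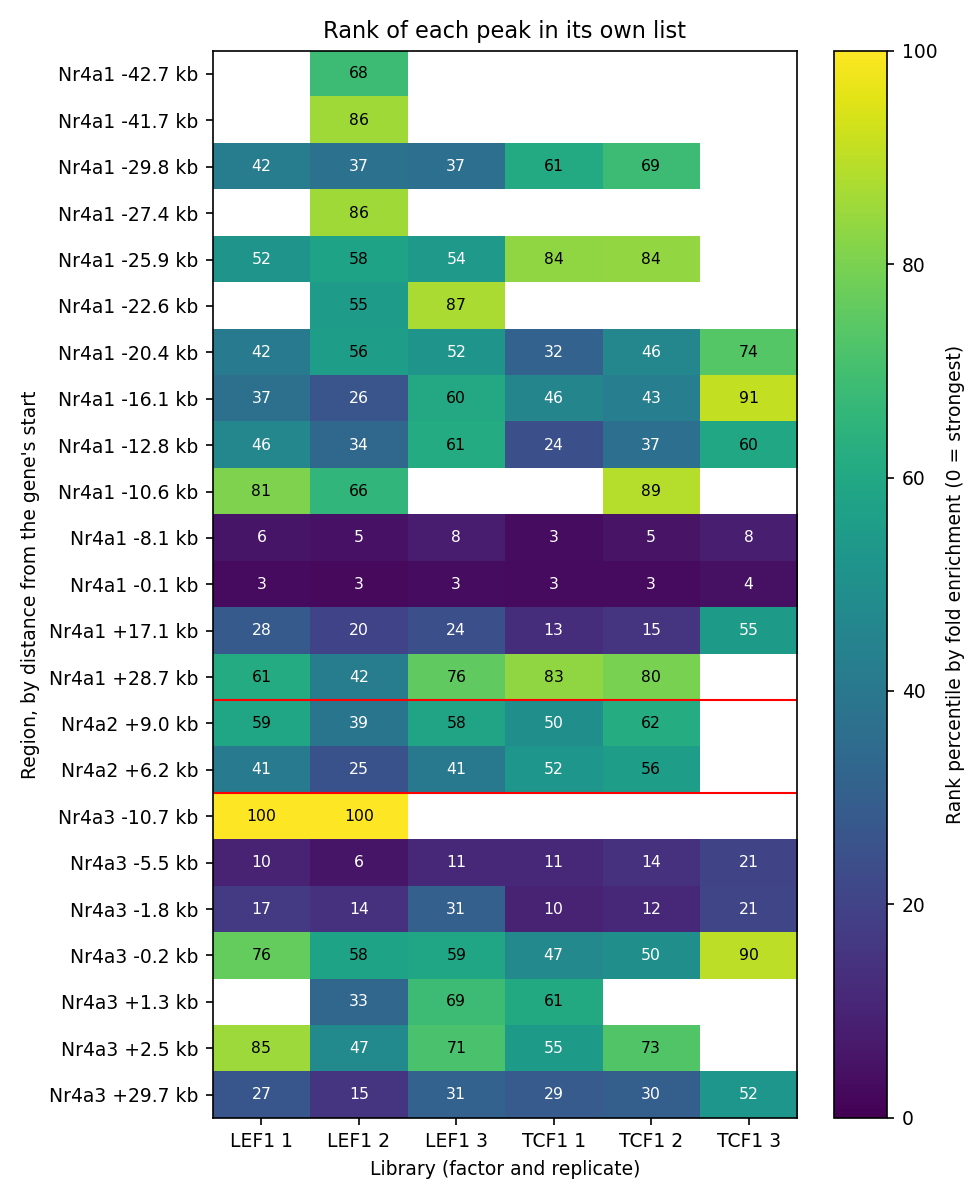
Rank percentile by fold enrichment of the strongest peak of each region (rows, by distance from the gene's start) in each library (columns), where 0 is the strongest peak of a list and white means no peak. The Nr4a1 regions at the start and 8.13 kb before it stay at or below percentile 8.33 in all libraries, and the Nr4a3 regions 5.48 and 1.82 kb before the start between 5.76 and 30.7.

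Fold enrichments belong to single lists, so LEF1 and TCF1 were compared by the ratio of neighbouring regions within a library. The members had 6 pairs of neighbouring regions found in all 6 libraries and at most 10 kb apart, and in 4 of them the LEF1 and TCF1 ratios did not overlap. Over the genome 29.0% of 2858 such pairs did not. At Nr4a3 the log2 ratio of the region at 1.82 kb to the one at 5.48 kb was -0.45, -0.70 and -0.91 in LEF1 replicates 1 to 3 and 0.10, 0.17 and -0.01 in TCF1 replicates 1 to 3. The difference of the means, LEF1 minus TCF1, was -0.77 (exact permutation test, two-sided, p = 0.1; adjusted over all 2858 pairs, p = 0.345). The ratio was higher in every TCF1 library than in every LEF1 library. The p of 0.1 is the smallest that 3 against 3 libraries allow, so no pair had an adjusted p below 0.345. The adjusted p therefore could not single out this pair.

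At Nr4a1 the region at the outer end of the gene body, 12.8 kb before the start, was set against its neighbours. Against the region at 16.1 kb its log2 ratio was -0.27, -0.30 and -0.03 for LEF1 and 0.72, 0.17 and 0.62 for TCF1, a difference of -0.71. The log2 ratio of the region at 8.13 kb to the one at 12.8 kb was 1.89, 1.73 and 1.96 for LEF1 and 1.45, 1.58 and 1.56 for TCF1, a difference of 0.33. These pairs share the 12.8 kb region, and its fold enrichment relative to either neighbour was higher in every TCF1 library than in every LEF1 library. For the promoter against the region at 8.13 kb the ratios were 0.39, 0.38 and 0.57 for LEF1 and 0.08, 0.32 and 0.35 for TCF1, a difference of 0.20, which was 0.11 without TCF1 replicate 1. Each of these 3 differences had an exact permutation p of 0.1 (two-sided) and an adjusted p of 0.345 over all pairs. The ratios of the remaining pairs overlapped between the factors, for the region at 16.1 kb against 20.4 kb of Nr4a1 and the promoter against 1.82 kb of Nr4a3 (exact permutation p = 0.2 and 1, two-sided).

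**Figure D4:**
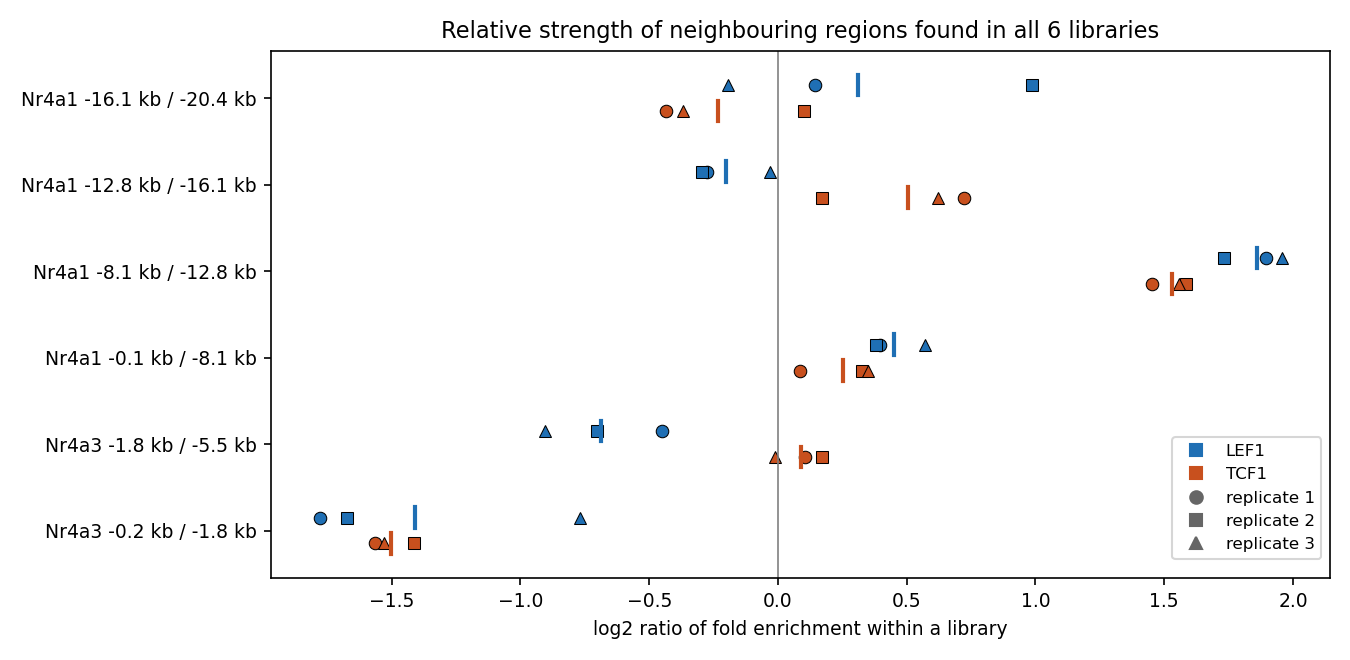
The log2 ratio of fold enrichments of neighbouring regions found in all 6 libraries, computed within each library (symbols; short bars are means, n = 3) for LEF1 (blue) and TCF1 (orange). In the Nr4a3 pair of 1.82 to 5.48 kb the LEF1 libraries lie between -0.91 and -0.45 and the TCF1 libraries between -0.01 and 0.17.

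Other genes of the same family and pathways were counted in the same way, as a description without a test. Among 45 other nuclear receptor genes, 18 (40%) had a region in all 6 libraries within 30 kb, with a median of 0 per gene. Over all protein-coding genes, the comparison for the lists that follow too, the share was 45.1% and the median 0. None of the 45 had as many as the 6 that Nr4a1 had in the lists as deposited. The 4 with the most regions were Rora (19 regions, 4 in all 6 libraries), a retinoid-related orphan receptor gene, Rara (17 and 5), a retinoic acid receptor gene, Ppard (13 and 4), a fatty acid receptor gene, and Vdr (11 and 4), the vitamin D receptor gene. The window of Rora spans 795 kb. Of the promoters of these receptor genes 5 of 39 had a peak in all 6 libraries and 26 had none, against 16.2% and 64.4% of all promoters.

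Of 30 early response genes of T cell receptor signalling, 28 (93.3%) had a region in all 6 libraries, with a median of 3. At least 6 such regions were found at 5 of them, as at Nr4a1, against 1.75% of all genes. At least 4 were found at 13, as at Nr4a3, against 5.84%. Il2ra (17 regions, 7 in all 6 libraries), an interleukin-2 receptor gene, had the most regions in any library, followed by Cd69 (15 and 5), an activation marker, Dusp2 (13 and 7), a phosphatase gene, and Zfp36 (12 and 7), which encodes an RNA-destabilising protein. Ier2, an immediate early gene, tied with Zfp36 in regions (12 and 2). Of the promoters of the early response genes 15 of 22 had a peak in all 6 libraries, as those of Nr4a1 and Nr4a3 did, and 3 had none. Every LEF1 library exceeded every TCF1 library in peak count at 2 of these 30 genes and at 4 of the 30 nuclear receptor genes with any peak, against 7.51% of all genes with a peak. The same held at 1 of the 18 upstream and partner genes with a peak, 4 of 20 checkpoint and exhaustion genes and 4 of 8 T cell marker genes, and at none of the B cell, myeloid and erythroid marker genes.

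Among 19 genes that act upstream of NR4A proteins or pair with them, 17 (89.5%) had a region in all 6 libraries, with a median of 1. Nfatc1 (24 regions, 5 in all 6 libraries), of the calcium-dependent NFAT factors, and Hdac7 (17 and 5), a deacetylase known to repress Nr4a1 in thymocytes, held the most. Nfatc3 (11 and 3) followed, and then the calcineurin genes Ppp3cc and Ppp3ca, each with 9 and 1. Their windows span 167 kb for Nfatc1, 112 kb for Hdac7, 132 kb for Nfatc3 and Ppp3cc and 328 kb for Ppp3ca. Of the promoters of these upstream and partner genes 6 of 14 had a peak in all 6 libraries and 5 had none. Among 20 checkpoint and exhaustion genes 18 (90%) had a region in all 6 libraries, with a median of 2. Of their promoters 7 of 18 had a peak in all 6 libraries and 8 had none. Ordered by regions in any library, the first were Tox (19 and 5), Cd101 (12 and 5), Prdm1 (12 and 4) and Tnfrsf9 (12 and 0). In that order their windows span 365, 97.4, 151 and 85.95 kb, against 80.9 kb for Nr4a1. The most regions in all 6 libraries were at Tnfrsf4 (8 and 6), a costimulatory receptor gene. The genes of the factors themselves held more, with 36 regions at Lef1 and 31 at Tcf7, of which 11 and 12 were in all 6 libraries.

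The genes whose covered bases were most like each member's over the 6 libraries were found by the Euclidean distance of log2(covered bases + 100). For Nr4a1 they were Vps26a (distance 0.130), Ptprk (0.135) and Dgka (0.166). For Nr4a2 they were Rxrb (0.138), Tlr9 (0.162) and Twf2 (0.201), each listed at 0 covered bases in TCF1 replicate 3 as Nr4a2 was. Tlr9 and Twf2 had equal covered lengths in every library but LEF1 replicate 2, so they may not be separate matches. For Nr4a3 the most alike genes were Elovl6 (0.210), Ccdc146 (0.2502) and Pym1 (0.254). All points share the 6 libraries and their list lengths, and list length moves with this measure.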

How the data were processed

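The submitters' processing notes name MACS3 3.0.3, Bowtie2 2.4.4, deepTools 3.5.1, Picard, Trim Galore 0.6.6, FastQC 0.12.1 and the build GRCm38.p6. Options, filters and the control of the peak caller are not given in the sources. The authors deposited 1 peak list per library, with a fold enrichment (a ratio of summit signal to local background), −log10 p-value and q-value, a score (which follows the −log10 q) and a summit offset for each peak. Treatment of duplicate and repeat reads can change which peaks are listed, and a longer list can hold more peaks at a gene.

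Chromosomes 1 to 19, X and Y were used, with 1-based coordinates. Peaks overlapping by at least 1 bp were merged into regions. Groups and replicate numbers came from the titles. Counts per gene were computed for 21887 protein-coding genes of a RefSeq table of the same build, and differences between 3 LEF1 and 3 TCF1 libraries were tested with exact permutation tests over 20 assignments, with Benjamini-Hochberg adjustment over all genes or pairs. Equal list sizes take the 11423 peaks of highest −log10 q per library. Python 3.11.15, numpy and pandas were used, and the code was tested on simulated data.

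The members, gene lists and tests were chosen with earlier results of these data known. Named were the members, protein-coding genes in their windows, the 3 most alike genes of each, the 4 list members with the most regions in any library, Lef1 and Tcf7. Ier2, Ppp3ca and Tnfrsf4 were named after their values were seen. The comparison of neighbouring regions and the scaling to 10000 listed peaks were added after seeing the data. Alternatives were other windows, a stricter −log10 q, other overlap rules and leaving out each library.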

Additional observations from a re-analysis of the deposited data

How the results depend on the processing

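The difference in peak count, LEF1 minus TCF1, turned negative with equal list sizes at Nr4a1 (-1) and Nr4a3 (-0.333), and per 10000 listed peaks at Nr4a1 (-0.265) and Nr4a3 (-0.28). It stayed positive at Nr4a2 in both (0.667 and 0.352). At all 3 genes it was positive with 10 or 50 kb around the gene and with a −log10 q of at least 5. Counting each summit could change nothing, since no list held a repeated interval. Leaving out 1 library gave differences of 2.5 to 4.5 at Nr4a1, 0.5 to 2 at Nr4a2 and 1.5 to 2.5 at Nr4a3. Regions found in all libraries at Nr4a1 fell from 6 to 3 with equal list sizes, and those at Nr4a3 from 4 to 2 where peaks had to cover at least 50% of a region. Leaving out 1 library gave 6 to 9 regions at Nr4a1, 0 to 2 at Nr4a2 and 4 to 5 at Nr4a3, with the highest each time without TCF1 replicate 3. A region found in all 6 libraries as a rule still counts with 1 left out, so the lower ends show no stability. The log2 ratio of the promoter to the 1.82 kb region of Nr4a3 (difference 0.09) was -0.23 without LEF1 replicate 3, and leaving out 1 library gave -0.23 to 0.28. The 4 pairs whose groups did not overlap kept their direction whichever library was left out, which their lack of overlap fixed in advance. The cause of these shifts was not tested.

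With the title's replicate number as a replicate block, the mean differences stay 3.67, 1.33 and 2 by arithmetic. The exact sign-flip p was 0.25, 0.5 and 0.25, where 3 pairs allow no p below 0.25. Libraries with the same title number did not all deviate together: the correlation over 14956 genes was -0.0284, 0.114 and 0.209 for numbers 1, 2 and 3. The library names carry other numbers than the titles, and by name only LEF1 replicate 3 and TCF1 replicate 1 share a number (correlation -0.233), so the title numbers may not pair the libraries. Without read totals, the depth that a missing peak reflects is unknown.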
